A study of Mus musculus with 11 samples.

Results

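The transcription factors that give hepatocytes their identity were followed in mouse liver while an active form of YAP, the transcriptional co-activator at the end of the Hippo pathway, was switched on in hepatocytes. The 8 genes were taken by symbol from the table: the forkhead factors Foxa1, Foxa2 and Foxa3, the CCAAT/enhancer-binding factors Cebpa and Cebpb, the cut-homeodomain factors Onecut1 and Onecut2, and the homeobox factor Prox1. They are 8 of the 20893 genes in the deposited table, and all 8 passed the filter on low values. The data are 11 bulk RNA-seq libraries from whole livers of C57BL/6 mice. The 4 control livers carried the genotype ROSA26-rtTA-IRES-EGFP; WT and the mice ate doxycycline food for 7 days. The induced mice carried ROSA26-rtTA-IRES-EGFP; tetYAP and ate doxycycline food for 3 days (4 livers) or for 7 days (3 livers). All groups therefore share the rtTA allele and doxycycline food, and the controls lack the tetYAP transgene. In each comparison with the 3-day livers, the days on doxycycline differ as well. In this model rtTA is released by a Cre driven from the albumin promoter. Induction is thereby directed to cells in which that promoter is or has been active, while the RNA comes from every cell of the liver. The labels do not give the age of the mice, and they do not list the Cre allele in any group.

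FOXA proteins are pioneer factors that open chromatin at liver enhancers. C/EBP alpha drives metabolic genes and holds back proliferation in hepatocytes, whereas C/EBP beta is known for its induction in regeneration and in the acute phase response. ONECUT1 (HNF6) and ONECUT2 (OC-2) act together in the developing liver, where they guide the choice between hepatocyte and biliary fate, and PROX1 is required for hepatoblast migration and restrains metabolic nuclear receptors in the adult liver.

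Onecut2 was the member with a fall that passed the test at 7 days, to 0.42 times the control level, and at 3 days it did not pass. Cebpa fell between 3 and 7 days, to 0.51 times the 3-day level, but this call depended on the processing. The other 6 members passed the test in no comparison, with spreads between livers that left wide intervals for several of them.

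The lines of sequence that follow show the promoters that the description below returns to: those of the 2 members with a match to a liver-factor motif and that of Cebpa, which holds none. Each is the 250 bases upstream of a RefSeq start site on GRCm38.p6, written 5′ to 3′ on the strand of the gene, and capitals mark the motif match. The Foxa1 promoter lies at chr12:57546112-57546361 on the minus strand, the Foxa2 promoter (the most upstream of 3 listed for the gene) at chr2:148046970-148047219 on the minus strand, and the Cebpa promoter at chr7:35119043-35119292 on the plus strand.
Foxa1: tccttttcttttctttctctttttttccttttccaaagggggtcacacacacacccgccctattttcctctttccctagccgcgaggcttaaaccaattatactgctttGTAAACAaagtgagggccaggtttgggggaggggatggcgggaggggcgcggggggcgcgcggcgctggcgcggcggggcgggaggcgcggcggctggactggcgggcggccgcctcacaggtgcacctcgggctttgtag
Foxa2: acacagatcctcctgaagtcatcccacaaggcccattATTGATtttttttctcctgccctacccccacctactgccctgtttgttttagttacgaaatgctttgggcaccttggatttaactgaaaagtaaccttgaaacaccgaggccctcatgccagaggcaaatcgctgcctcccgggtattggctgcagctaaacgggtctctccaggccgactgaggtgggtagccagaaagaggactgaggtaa
Cebpa: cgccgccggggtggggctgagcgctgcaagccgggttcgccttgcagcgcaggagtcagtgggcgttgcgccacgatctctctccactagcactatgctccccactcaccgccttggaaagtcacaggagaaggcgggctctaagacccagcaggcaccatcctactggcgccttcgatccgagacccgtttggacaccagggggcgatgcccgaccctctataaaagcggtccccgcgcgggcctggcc

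The RefSeq table matched 7 of the 8 members, all but Onecut2, with 10 promoters, so no promoter of Onecut2 was searched. Both strands were searched for GGAATG (the TEAD motif, through which YAP is recruited to DNA), TGTTTAC (FOXA), ATTGAT (ONECUT), TTGCNNAA (C/EBP) and CAAAGTCCA (HNF4A). The Foxa1 promoter held the FOXA motif on the opposite strand, read as GTAAACA from base -141 relative to the start site. The Foxa2 promoter held ATTGAT from base -213. These letters occur in 3.2% (FOXA) and 6.7% (ONECUT) of all 32851 promoters of the same length. None of the 10 promoters held the TEAD, C/EBP or HNF4A letters, which occur in 12.6%, 9.6% and 0.4% of all promoters. A match is a description of the sequence and was not tied to the expression values.

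Levels are eRPKM, reads on exons per kilobase of gene, scaled by the authors for library size. The control libraries held 1251396 to 5495697 reads on genes, the 3-day libraries 2660233 to 3681416 and the 7-day libraries 5312486 to 5941357. Control liver 4 was the shallowest library, and behind its values stood 15 reads for Onecut1 and 33 for Foxa1. Hepatocyte markers were present in every liver, the 7 defining ones summing to 1490 to 4410 eRPKM in controls, 1870 to 2360 in 3-day livers and 1280 to 1440 in 7-day livers. These sums rest on very abundant genes, whose eRPKM followed depth: in controls Alb read 336, 268, 535 and 918 eRPKM in livers 1 to 4, the last being the shallowest, while its reads per kilobase before scaling were 1310, 1470, 1290 and 1150, and over all 11 livers 1150 to 1470. A difference in eRPKM of such genes between libraries of unequal depth therefore cannot be read as a difference in RNA level alone. Yap1 itself did not pass the test at 7 days. It read 18.2 ± 3.10 eRPKM in 4 controls and 18.4 ± 0.862 in 3 livers at 7 days (mean ± SD). Whether reads of the tetYAP transgene count towards Yap1 is not given in the sources used here, so this level does not measure induction. For mice of this model the paper reports that YAP had reached its highest level by the earlier time point. The YAP target Cyr61 averaged 9.43, 39.0 and 91.0 eRPKM in the 3 groups. By Xist and Ddx3y, 2 of 4 control livers, 2 of 4 livers at 3 days and all 3 at 7 days were female. The labels of 3-day livers 1 and 4 and of 7-day liver 2 carry a suffix, MF, whose meaning is not given in the sources used here.

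The test was limma on log2(eRPKM + 0.5). A gene counts as called where its p, adjusted by Benjamini-Hochberg over all 14244 tested genes, is below 0.01 and its log2 fold change is beyond 0.5 in either direction. Fold changes are on that scale, which understates changes of low genes. Exact two-sided permutation tests over livers are given beside it, and the smallest p they allow is 0.0286 in each comparison.

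In control livers the level of Cebpa was the highest of the 8, at 165 ± 36.0 eRPKM (SD, n = 4), and its lowest control liver, 136 eRPKM, lay above every control value of the other members. Onecut2 followed at 59.8 ± 9.80, Foxa3 at 57.8 ± 5.44, Prox1 at 47.1 ± 6.42, Cebpb at 39.35 ± 13.2, Foxa2 at 25.1 ± 8.71, Onecut1 at 16.2 ± 9.14 and Foxa1 at 14.4 ± 4.25. Neighbours in this order below Cebpa overlapped between livers and are not separated from each other, whereas every control value of Onecut2, Foxa3 and Prox1 lay above every control value of Foxa2, Onecut1 and Foxa1.

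**Figure D1:**
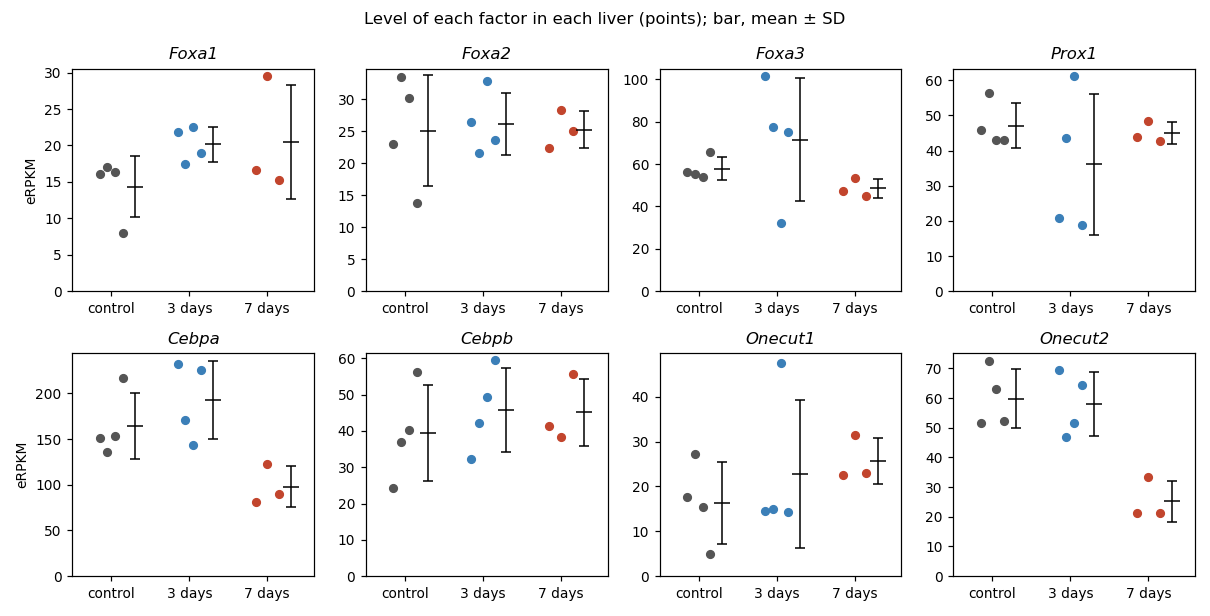
Level of each factor (y axis, eRPKM, from 0) in each liver (points) of the control (n = 4), 3-day (n = 4) and 7-day (n = 3) groups, with the group mean ± SD as a bar to the right of the points. The 3 livers at 7 days lie below all controls for Onecut2, Cebpa and Foxa3, and 3-day livers 1 and 4 are the lowest of all livers for Prox1.

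At 3 days of induction none of the 8 members was called, where 0.0421% of all tested genes were (6 of 14244). No member had an unadjusted limma p under 0.05 either, against 12.1% of all genes. The median log2 fold change over the members was 0.21, beside 0.02 over all tested genes, with 6 members above 0 and 2 below. At 7 days 1 of 8 was called against control, where 23.8% of all genes were called, 18.0% upwards and 5.77% downwards. At an unadjusted p under 0.05 there were 2 of 8, against 47.3% of all genes, and between 3 and 7 days 2 of 8, against 46.2%. The median over the members was 0.01 and that over all genes 0.26. The deposited scaling places most genes a little higher at 7 days: with median-ratio scaling the median of all genes was 0.025 and 60.9% of calls were rises, and with quantile normalization -0.077 and 50.5%, in place of 75.7%. Between 3 and 7 days 2 of 8 members were called, both downwards, where 19.3% of all genes were called, 5.31% downwards. In that comparison 72.5% of calls were rises, 56.2% with median-ratio scaling and 50.1% with quantile normalization. The comparisons at 3 and 7 days share the same controls, and both comparisons of the 7-day livers share those livers.

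**Figure D2:**
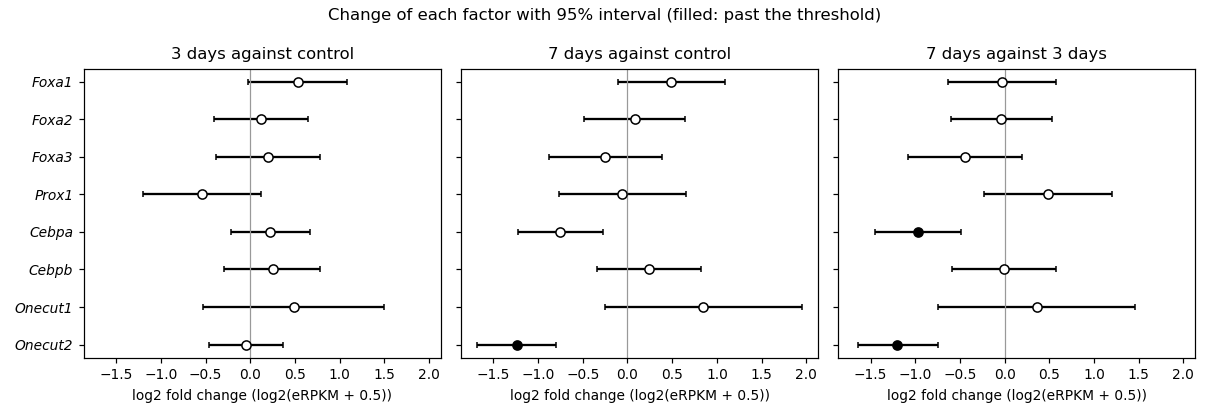
Log2 fold change of each factor on the log2(eRPKM + 0.5) scale (x axis) with its 95% interval from limma, in the 3 comparisons (panels). Filled points pass the threshold: Onecut2 (-1.24) at 7 days against control, and Onecut2 (-1.20) and Cebpa (-0.97) at 7 days against 3 days.

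Among the pioneer factors, Foxa1 (chr12:58641618-58647108, minus strand, mm9) read 16.1, 17.0, 16.3 and 8.03 eRPKM in control livers 1 to 4, 21.8, 17.45, 22.5 and 18.9 at 3 days, and 16.7, 29.5 and 15.2 at 7 days. All 4 livers at 3 days lay above all controls, with little between 3-day liver 2 and control liver 2, while the 7-day livers overlapped the controls. Such separation was seen for 5.64% of all genes at 3 days, 3.38% as rises. The log2 fold change at 3 days was 0.53 (SE 0.26, 95% interval -0.03 to 1.08, adjusted p = 0.442, exact permutation p = 0.0286), and it was 0.28 (adjusted p = 0.574) without control liver 4, the lowest and shallowest. At 7 days it was 0.49 (SE 0.28, adjusted p = 0.181), and 0.20 without 7-day liver 2, the highest of all livers.

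Foxa2 (chr2:147868613-147872705, minus strand, mm9), which is tied to bile acid and fasting metabolism in adult liver, read 23.0, 33.4, 30.2 and 13.8 eRPKM in controls, 26.4, 21.7, 32.8 and 23.7 at 3 days, and 22.5, 28.3 and 25.1 at 7 days. Every induced liver lay inside the range of the controls. The difference from control was 0.12 at 3 days (95% interval -0.41 to 0.64, adjusted p = 0.884) and 0.08 at 7 days (-0.49 to 0.64, adjusted p = 0.840). The sign of both values turned without control liver 4, to -0.14 and -0.18. The intervals leave room for a change of about the size of the call threshold in either direction.

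Foxa3 (chr7:19598631-19608887, minus strand, mm9) is the FOXA gene with the highest level in adult liver in these data. It read 56.3, 55.3, 53.7 and 65.8 eRPKM in controls, 101.6, 77.6, 32.2 and 74.9 at 3 days, and 47.2, 53.5 and 45.0 at 7 days. At 3 days 3 livers lay above all controls and liver 3 lay below all of them. At 7 days all 3 livers lay below all controls, as did 13.3% of all genes, and 50.0% of genes separated in either direction. The 7-day difference was small, -0.25 (SE 0.29, 95% interval -0.88 to 0.39, adjusted p = 0.534, exact permutation p = 0.0286). Between 3 and 7 days the difference was -0.44 (adjusted p = 0.251). Leaving out 3-day liver 3 made it -0.79 (adjusted p = 0.00218), past the threshold.

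The 3 FOXA genes together summed to 87.6 to 105.8 eRPKM in controls, 87.5 to 149.8 in 3-day livers and 85.3 to 111 in 7-day livers. Foxa3 made up 52.3% to 75.1% of that sum in controls, 36.8% to 67.8% in 3-day livers and 48.1% to 54.7% in 7-day livers. The 3 ranges overlapped for the sum and for the share.

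Cebpa (chr7:35904312-35906945, plus strand, mm9, a single exon) read 152, 136, 154 and 217.5 eRPKM in controls, 232, 171, 144 and 225 at 3 days, and 81.1, 123 and 89.55 at 7 days. The 3-day livers overlapped the controls, and the 3 livers at 7 days lay below all livers of both other groups. Cebpa and Onecut2 were the 2 members that separated in this way between 3 and 7 days, where 45.1% of all genes did, 13.8% as falls. Between 3 and 7 days Cebpa fell by 0.97 on the log2 scale (SE 0.22, 95% interval -1.45 to -0.49, adjusted p = 0.00537, exact permutation p = 0.0286), 1.96-fold. Against control the 7-day difference was -0.75 (SE 0.22, 95% interval -1.23 to -0.27, exact permutation p = 0.0286), and its adjusted p of 0.0182 missed the threshold. At 3 days it was 0.22 (adjusted p = 0.699).

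The call of Cebpa between 3 and 7 days was lost in 9 of 29 alternatives. Among them it was lost when 3-day liver 1, 3-day liver 4, 7-day liver 1 or 7-day liver 3 was left out (-0.87, -0.89, -0.85 and -0.92, adjusted p 0.0161 to 0.0322), with quantile normalization (-0.55), with depth as a covariate (-0.75), among female livers (-0.90) and without the 3-day livers marked MF (-0.70). Over all alternatives its adjusted p ran from 7.2e-04 to 0.0609. Against control the 7-day value was -0.27 with quantile normalization (adjusted p = 0.257) and -0.45 with depth as a covariate (adjusted p = 0.186), and over all alternatives the adjusted p ran from 0.00156 to 0.257. Cebpa is also the 1 member among the 891 tested genes with a mean of at least 300 reads per kilobase, with 565.5. The median log2 fold change of these 891 genes at 7 days against control was -0.50, against 0.31 for the rest, so that genes of high read density were lower as a class. The reads per kilobase of Cebpa were 591, 748, 370.1 and 272 in controls, higher in the deeper libraries. The part of read density in the Cebpa values was not tested. In whole liver RNA, fewer hepatocytes and less Cebpa RNA per hepatocyte cannot be told apart, and this holds for each fall given here.

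Cebpb (chr2:167514415-167515918, plus strand, mm9) read 24.2, 36.8, 40.2 and 56.2 eRPKM in controls, 32.2, 42.3, 49.4 and 59.6 at 3 days, and 41.3, 38.4 and 55.6 at 7 days. The 3 groups overlapped throughout. The difference from control was 0.25 at 3 days (95% interval -0.29 to 0.78, adjusted p = 0.728) and 0.24 at 7 days (-0.34 to 0.82, adjusted p = 0.515), and that between 3 and 7 days was -0.01 (adjusted p = 0.984). In the GENCODE M1 annotation 312 bases (20.7%) of its exon lie under an exon of Tmem189 on the opposite strand, and since the alignment took no account of strand, reads there cannot be told apart. Macrophages express Cebpb too, and the 7 macrophage markers measured summed to 235 to 481 eRPKM in controls, 299 to 542 in 3-day livers and 883 to 945 in 7-day livers. Their part in the Cebpb level was not tested.

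Set against Cebpa within each liver, Cebpb stood at a ratio of 0.159, 0.270, 0.262 and 0.259 in controls, 0.139, 0.247, 0.344 and 0.265 at 3 days, and 0.509, 0.312 and 0.621 at 7 days. All 3 livers at 7 days lay above all controls. A ratio within a library does not move with the scaling of that library, but it can move with read density. Cebpa averaged 565.5 reads per kilobase and Cebpb 168.1, and only Cebpa lies in the class of at least 300. With quantile normalization Cebpa stood at -0.27 and Cebpb at 0.24 at 7 days against control. The part of read density in the ratio was not tested. The log2 ratio was 0.99 higher at 7 days than in controls (exact permutation p = 0.0286), but with 12 ratio tests in the family the adjusted p was 0.171. With groups of this size no adjusted p could pass 0.05 unless at least 7 of the 12 tests reached the smallest p. The difference between 7 and 3 days was 0.96 (exact permutation p = 0.0857).

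Onecut2, on chromosome 18, read 51.7, 72.3, 63.0 and 52.3 eRPKM in controls, 69.6, 46.75, 51.5 and 64.5 at 3 days, and 21.3, 33.3 and 21.4 at 7 days. The 3-day livers overlapped the controls and all 3 livers at 7 days lay well below the lowest liver of either other group. Against control it fell by 1.24 on the log2 scale at 7 days (SE 0.20, 95% interval -1.68 to -0.80, adjusted p = 4.9e-04, exact permutation p = 0.0286), 2.37-fold. Against the 3-day livers it fell by 1.20 (SE 0.20, adjusted p = 8.2e-04, exact permutation p = 0.0286), 2.29-fold. At 3 days the difference from control was -0.05 (95% interval -0.46 to 0.36, adjusted p = 0.946).

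The fall of Onecut2 against control was called in all 29 alternatives, at -1.51 to -1.14, with adjusted p between 3.5e-05 and 0.00492. Among female livers it was -1.43 (adjusted p = 0.00207). The fall against 3-day livers was lost in 1 alternative, without the pair of 3-day livers marked MF (-0.97, adjusted p = 0.0104). At least 903 reads stood behind each Onecut2 value, and the spread between livers of a group was narrow, 0.28 on the log2 scale beside a median of 0.33 over all tested genes. The tested genes whose 11 values lay closest to those of Onecut2, relative to the control mean, were Ccbe1, Agmo (alkylglycerol monooxygenase, an ether lipid enzyme) and Zfp354b, with mean absolute log2 differences of 0.127, 0.137 and 0.157 and 7-day changes of -1.11, -1.17 and -1.15. They were picked for closeness from 14243 genes, so their like changes follow from the choice. In controls they averaged 3.86, 41.3 and 3.02 eRPKM, so the changes of Ccbe1 and Zfp354b are understated on this scale.

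Onecut1 (chr9:74709728-74737591, plus strand, mm9) read 17.6, 27.1, 15.3 and 4.865 eRPKM in controls, 14.6, 14.9, 47.5 and 14.2 at 3 days, and 22.5, 31.6 and 22.9 at 7 days. Control liver 4 was the lowest and 3-day liver 3 the highest of all livers, and the other 3 livers at 3 days lay close together. The difference from control was 0.49 at 3 days (SE 0.47, adjusted p = 0.713) and 0.85 at 7 days (SE 0.51, 95% interval -0.25 to 1.95, adjusted p = 0.207, exact permutation p = 0.229). Without control liver 4 these values were 0.01 and 0.37. The residual spread of Onecut1, 0.81 on the log2 scale, was at the 95.6th percentile of all tested genes. In the annotation 479 bases (22.6%) of its exons are shared with Gm16551 on the same strand, so part of its reads may be counted for either gene.

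The ratio of Onecut2 to Onecut1 within a liver was 2.94, 2.67, 4.11 and 10.8 in controls, 4.76, 3.14, 1.08 and 4.54 at 3 days, and 0.947, 1.05 and 0.932 at 7 days. The 3 livers at 7 days, near equal levels of both paralogs, lay below every other liver. The log2 ratio differed by -2.09 from the controls (exact permutation p = 0.0286, adjusted over the 12 ratio tests 0.171) and differed by -1.56 from the 3-day livers (exact permutation p = 0.0571). Without control liver 4 the first difference was -1.68. The log2 ratio of Foxa1 to Foxa2 differed by 0.41 from control at 3 days (exact permutation p = 0.0571) and by 0.41 at 7 days (exact permutation p = 0.114), and that of Foxa3 to Foxa2 by 0.08 and -0.33 (exact permutation p = 0.943 and 0.600). No ratio passed the correction.

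**Figure D3:**
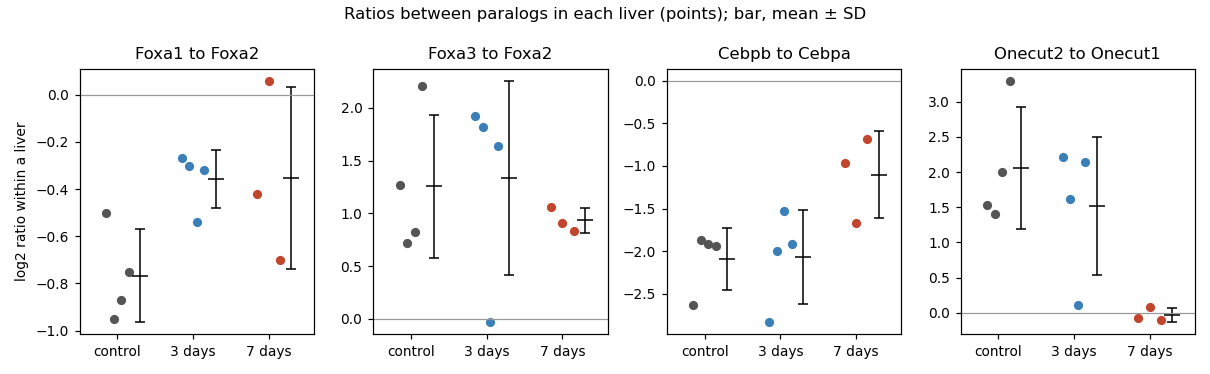
Log2 ratio between paralogs within each liver (y axis; 0 is an equal level) for 4 pairs, by group, with points for livers and bars for mean ± SD. At 7 days the 3 livers lie above all controls for Cebpb to Cebpa and below all controls for Onecut2 to Onecut1.

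Prox1 (chr1:191945660-191994559, minus strand, mm9) read 45.9, 56.5, 43.05 and 42.9 eRPKM in controls, 20.7, 43.55, 61.1 and 18.9 at 3 days, and 43.8, 48.5 and 42.8 at 7 days. Controls and 7-day livers lay close together, and the 3-day livers split, with livers 1 and 4 below and liver 3 above all others. The difference from control was -0.54 at 3 days (SE 0.31, 95% interval -1.20 to 0.12, adjusted p = 0.506, exact permutation p = 0.371) and -0.06 at 7 days (95% interval -0.77 to 0.66, adjusted p = 0.910). Without 3-day livers 1 and 4 the 3-day value was 0.14. Lymphatic endothelium expresses Prox1 as well. The 3 lymphatic markers measured summed to 16.5 to 35.8 eRPKM in controls, 21.2 to 33.9 in 3-day livers and 44.8 to 85.9 in 7-day livers. Lyve1, also on the endothelial list, averaged 11.4 eRPKM in controls and 43.6 at 7 days, Flt4 13.95 and 24.7, and Pdpn 0.192 and 0.593. The sum is therefore not a measure of lymphatic endothelium alone. The part of these markers in the Prox1 level was not tested.

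The pair of 3-day livers with low Prox1 is the pair marked MF. Prox1 averaged 19.8 eRPKM in it and 52.3 in the other 3-day livers, Onecut1 14.4 and 31.2, Cebpa 229 and 157, and Onecut2 67.1 and 49.1, with no overlap between the pairs for these 4 of the 8 genes (50.0%). Of all tested genes 55.9% separated these pairs, so that the share among the 8 is near the background. The 7-day liver marked MF was not low in Prox1, at 48.5 eRPKM, the highest of its group. The difference between the pairs was not tested here, and what the suffix stands for is not given.

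Of 26 other liver transcription factors on a list of the liver network, 24 passed the filter on low values. None was called at 3 days. At 7 days against control 7 fell and 2 rose, with a median log2 fold change of -0.09 beside 0.26 over all genes. Of the 24, 6 belong to the class of at least 300 reads per kilobase (median -0.44), and the other 18 had a median of 0.14. Of the 7 falls, 2 were in the class and 5 outside it. The largest changes among the called were Tbx3, a T-box factor of pericentral hepatocytes (-2.36, from 10.2 to 1.56 eRPKM), Sox4, a factor of biliary development (2.07, from 2.82 to 12.9), Nr0b2 (SHP), the co-repressor in bile acid feedback (-1.98, from 33.6 to 8.23), and Nr1i3 (CAR), the xenobiotic receptor (-1.84, from 56.8 to 14.9).

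Hnf4a, the nuclear receptor at the centre of the hepatocyte network, averaged 159, 158 and 124 eRPKM in the 3 groups (7-day change -0.35, adjusted p = 0.0662). The 2 members of the list with the highest level that were not called at 7 days were Xbp1 (-0.53, adjusted p = 0.0375) and Hnf4a.

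Hepatocyte products, many of them known targets of these factors, were counted in the same comparison. Of 24 hepatocyte output genes 11 fell and none rose at 7 days (median -0.91), with Cyp7a1, the rate-limiting enzyme of bile acid synthesis, at -3.09, G6pc, the last enzyme of glucose release, at -2.11, and Cyp2e1, a pericentral cytochrome P450, at -2.0. Alb and Apob, those not called with the highest mean over all 11 livers, were at -0.88 (adjusted p = 0.0493) and -0.82 (adjusted p = 0.0522). Of 16 acute phase genes, many of them known C/EBP targets, 6 fell and none rose (median -0.99), with Saa4 at -2.74, Saa1 at -2.49, Orm2 at -2.11 and Saa3 at -2.04. Hpx and Fgb, not called, were at -0.85 (adjusted p = 0.060) and -0.92 (adjusted p = 0.0405), and Lcn2, named after its value was seen, stood the other way at 2.43 (adjusted p = 0.0156, from 14.9 to 76.4 eRPKM). Saa and Orm genes are close copies of each other, so reads may be split between them. None of either list was called at 3 days. Of the output genes 23 of 24, and of the acute phase genes 11 of 16, belong to the class of at least 300 reads per kilobase. Alb, whose eRPKM moved with depth as given above, is in this class, and the 7-day libraries are among the deepest. How far the other genes of the class moved with depth was not tested gene by gene. In controls F9 read 119 to 159 eRPKM, a narrower range than that of Alb. With depth as a covariate 8 output genes fell (median -0.37) and 4 acute phase genes (median -0.32), and with quantile normalization 9 (median -0.26) and 7 (median -0.21). The 7 defining hepatocyte markers had a median of -0.79, of -0.07 with depth as a covariate and of 0.02 with quantile normalization. Split by read density, the 11 acute phase genes in the class had medians of -0.85, -0.20 with depth as a covariate and -0.11 with quantile normalization. The other 5 had medians of -2.11, -1.52 and -2.65, with 3, 1 and 4 called falls. The part of read density in these medians was not tested.

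Markers of other cells were counted at 7 days too, where 18.0% of all tested genes were called upwards and 5.77% downwards. For the biliary, endothelial and lymphocyte lists the counts of rises are near that share. Of 7 macrophage markers 5 rose (median 1.49), with Marco at 3.47, Cd68 at 2.61, Csf1r at 1.81 and Vsig4 at 1.49. Of 7 biliary markers 1 rose, Krt7 (1.51), with a list median of 0.95 beside 0.26 over all genes. The list summed to 48.4 to 60.2 eRPKM in controls, 47.3 to 94.3 in 3-day livers and 71.2 to 131 in 7-day livers. Spp1 alone averaged 38.7 eRPKM in controls and 67.4 at 7 days. Of 8 endothelial markers 2 rose, Lyve1 (1.93) and Cdh5 (1.5). Of 3 lymphatic markers 2 rose, Flt4 (0.83) and again Lyve1, which is on both lists. Ptprc (1.96) rose among 8 lymphocyte markers, whose list median was -0.07. Of 4 neutrophil markers 2 rose (Retnlg 2.10 and S100a9 1.53), and 1 of 8 stellate markers fell (Reln, -1.22). Of the highest members not called, Clec4f was at 0.87 and Lyz2 at 0.99 among macrophage markers, Spp1 at 0.74 and Cd24a at -0.01 among biliary markers, and Clec4g at -0.77 and Oit3 at 0.29 among endothelial markers. Pdpn of lymphatic vessels was at 0.68, S100a8 and Cxcr2 of neutrophils at 1.58 and -0.13, Lrat and Col1a1 of stellate cells at -1.18 and -0.25, and Cd3d and Cd79a of lymphocytes at -0.62 and 0.21. Of the 7 defining hepatocyte markers Ttr fell (-1.40). No marker list held a gene called at 3 days, and the part of these lists in the values of the 8 factors was not tested.

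**Figure D4:**
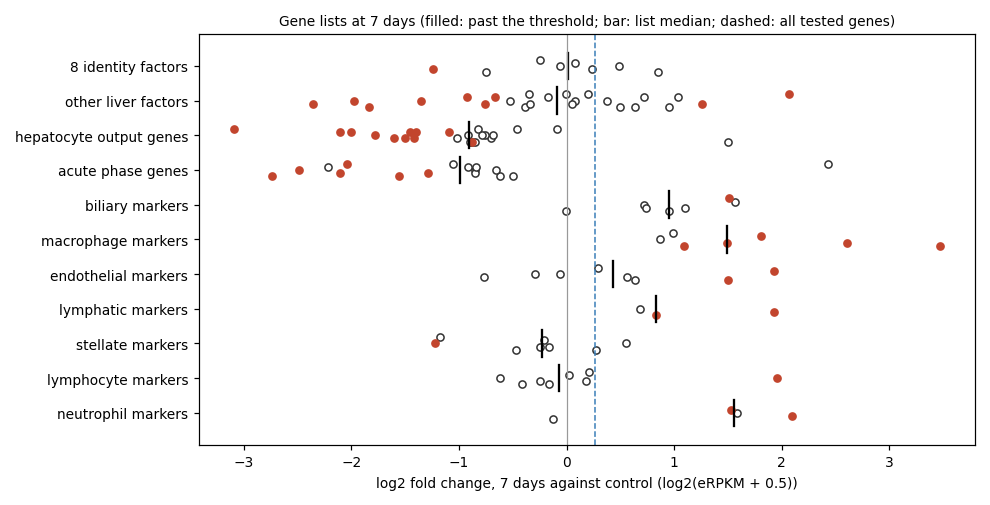
Log2 fold change at 7 days against control (x axis, log2(eRPKM + 0.5)) of the 8 identity factors and 10 other gene lists, 1 point per tested gene, filled where it passed the threshold. Bars are list medians and the dashed line is the median of all tested genes, 0.26; the 8 factors have a median of 0.01 and the hepatocyte output genes, 23 of 24 of high read density, one of -0.91 (-0.37 with depth as a covariate).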

How the data were processed

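Whole-liver total RNA of 11 mice was sequenced after TruSeq RNA v2 preparation. Per the study's methods and the submitters' processing notes, the authors masked low-quality bases, aligned with TopHat 2.0.8 (build mm9, unstranded setting), and named featureCounts 1.4.5-p1, SAMtools and DESeq2. The gene annotation and the handling of duplicate reads are not given in the sources used here. The deposited values are eRPKM, a form of RPKM scaled by the authors to each library. The table's 3 columns of the authors' own comparison (mean signal, log2 fold change, adjusted p) were not used.

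Sample groups came from the sample titles. Whole reads were recovered from the steps between low eRPKM values: 100.0% of 177553 values above 0 lay within 0.1 of a whole read. They served for depth and for 1 alternative. Of all genes, 14244 reached 0.5 eRPKM in 3 or more libraries. They entered limma 3.58.1 (under R 4.3.3; trend) on log2(eRPKM + 0.5), 3 groups in one fit, no covariate, and called at the study's thresholds, an adjusted p below 0.01 with a log2 fold change beyond 0.5 either way. Exact two-sided permutation tests ran over 70 or 35 splits of the livers (numpy 2.4.6). The scripts were tested on simulated data. P-values measure the spread between the livers listed, 1 library each. The members and gene lists were chosen with earlier results of these data known. All 8 members are named. From other lists the 4 called genes with the largest 7-day change, the 2 highest not called and Hnf4a are named (a few further genes under this rule are not reported here), and for a member called at 7 days the 3 closest genes. Positions are from GENCODE M1 (mm9) and promoters from RefSeq (GRCm38.p6), and the 2 builds were not mixed. Alternatives covered the pseudocount, filter, scaling, variance model, covariates, sex, threshold and each liver left out, and 3 chosen after seeing the data.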

Additional observations from a re-analysis of the deposited data

Results flagged for a closer look

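In 24 sets of 4 livers (8 factors and 4 paralog ratios in controls and at 3 days), 5 held a liver whose gap to its nearest neighbour took more of the range of the set than Dixon's 95% limit, which chance passes in about 1 set in 20. Control liver 4 was the lowest for Foxa1, with a gap of 0.895 of the range. Liver 3 at 3 days was the highest for Onecut1 (0.98) and the lowest for the log2 ratios of Foxa1 to Foxa2 (0.8292) and of Foxa3 to Foxa2 (0.856). Control liver 1 was the lowest for the log2 ratio of Cebpb to Cebpa (0.909).

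The change against control differed between 7 and 3 days for 2 factors by the test of that difference: by -0.97 for Cebpa and by -1.20 for Onecut2 on the log2 scale, with the adjusted p-values given above for 7 days against 3 days.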

How the results depend on the processing

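Few of all tested genes were called at 3 days in the 29 alternatives, from 0 in several to 93 without the MF-marked 3-day livers. No factor was called at 3 days in any of them, so this count is a weak check of the factors. At 7 days against control 2 were called in place of 1 with the MF suffix as a covariate and at an adjusted p under 0.05 with any fold (2), Cebpa being added at -0.93 and -0.75, whereas it stood at -0.27 with quantile normalization and at -0.45 with depth as a covariate. Between 3 and 7 days 1 was called in place of 2 with quantile normalization, with depth as a covariate and among female livers, and 0 without the MF-marked 3-day livers. With each liver left out in turn it was 1 to 3. With the replicate number as a block it was 1, Cebpa being lost at -0.86 (adjusted p = 0.0144), and the calls against control kept their counts. The numbers are not shown to pair livers, since same-numbered livers deviated from their group means with correlations of -0.222 to 0.269, 2 of 10 above 0.1, and 2 of 11 livers correlated best with their own number.

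Values that had not passed the threshold changed sign in many alternatives, and none passed it there. Most were near 0, but Onecut1 (0.85 at 7 days and 0.49 at 3 days) and Prox1 (-0.54 at 3 days and 0.48 between 3 and 7 days) were not. For Foxa2 against control at 3 days they were -0.10 with the 2 deepest controls, -0.18 among females, -0.0 with depth as a covariate, -0.01 with quantile normalization and -0.25 without control liver 4 and 3-day liver 3. At 7 days they were -0.14, -0.33, -0.37, -0.18 and -0.18 in these alternatives, -0.02 with voom on recovered reads, -0.19 with median-ratio scaling and -0.07 with the replicate block. The 3-day values were, among females, -0.15 for Foxa3, with the MF covariate -0.04 for Cebpa and -0.09 for Foxa3, and without MF-marked 3-day livers -0.05 for Cebpa, -0.20 for Foxa3 and 0.14 for Prox1. For Onecut1 they were -0.15 with the 2 deepest controls and -0.40 without control liver 4 and 3-day liver 3. At 7 days against control Prox1 was 0.19 with the MF covariate, Onecut1 -0.19 with depth as a covariate and Cebpb -0.03 with median-ratio scaling. Between 3 and 7 days Onecut1 was -0.04 among females, -0.40 with depth and -0.07 without MF-marked livers, Prox1 was -0.20 without them, and Foxa1 was 0.03 with the MF covariate. Cebpb was 0.21 with depth, 0.09 with quantile normalization and 0.16 with the block. Without control liver 4 and 3-day liver 3 Foxa1 was 0.02, Cebpb 0.04 and Foxa2 0.08. The log2 ratio of Foxa3 to Foxa2 among females was 0.16 at 7 days against control and 0.13 against 3 days.

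With each liver left out, the ranges that crossed 0 were, at 3 days, -0.14 to 0.28 (Foxa2), -0.01 to 0.54 (Foxa3), -0.14 to 0.05 (Onecut2), and for the ratios -0.11 to 0.54 (Foxa3 to Foxa2) and -0.16 to 0.28 (Cebpb to Cebpa). At 7 days against control they were -0.18 to 0.24 (Foxa2) and -0.11 to 0.03 (Prox1). Between 3 and 7 days they were -0.32 to 0.14 (Foxa1), -0.12 to 0.08 (Foxa2), -0.17 to 0.13 (Cebpb) and -0.20 to 0.18 (Foxa1 to Foxa2). The 7-day differences from control of Onecut2 to Onecut1 and Cebpb to Cebpa kept their direction, but without a control or 7-day liver, or among females, the smallest p is at least 0.0667, so those tests could not pass. Voom on recovered reads called 3749 genes at 7 days against control and 1 at 3 days. The 2 deepest controls, the livers without the MF pair, and the livers without control liver 4 and 3-day liver 3 were alternatives chosen after seeing the data, as were the depth covariate, quantile normalization and read density class for the gene lists. The cause of these shifts was not tested. In control liver 4 Onecut1, Foxa1 and Foxa2 rest on 15, 33 and 38 reads.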

Other observations

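Several factors deviated from their group mean in the same livers. In control liver 4 Foxa1, Foxa2 and Onecut1 stood at -0.74, -0.77 and -1.42 on the log2 scale, while Cebpa and Cebpb stood at 0.42 and 0.57. In 3-day liver 3 Onecut1 and Prox1 stood at 1.25 and 0.92, and Foxa3 and Cebpa at -1.03 and -0.40. Both are given as values, and no relation between the factors was tested.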
